A study of Mus musculus with 5 samples.

Results

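The genes described here encode the enzymes that hydroxylate and crosslink collagen and the oxidase that drives disulfide formation in the endoplasmic reticulum (ER). They were P4ha1, P4ha2 and P4hb, the lysyl hydroxylase genes Plod1, Plod2 and Plod3, Ero1a, Lox and Loxl2. Probe sets annotated with that gene symbol alone were eligible, and where a gene has several, the one to use is chosen by the highest average log2 level across the 5 arrays. The rule found 8 of the 9 genes, each with a single probe set, among 19938 measured genes. Loxl2 gave no value, because its 1 probe set is annotated to a second gene symbol as well. The genes themselves were selected with earlier results of the DOX comparison known, so their values are a description, and levels across the 5 arrays decided nothing further because no gene had a second probe set.

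The arrays measured RNA from mouse embryonic stem (ES) cells that carried a tetO-Satb1 transgene, a copy of the chromatin protein gene Satb1 under a doxycycline-responsive promoter. In the +DOX group, 3 arrays held RNA of cells given doxycycline (DOX) for 24 h. In the no DOX group, 2 arrays held RNA of cells kept without it. Both groups carried the transgene by their titles, although the title of the series calls the comparison cells WT, and both were grown in serum and LIF and harvested 48 h after passaging. On feeders the labels are not uniform: per the treatment protocol the cells sat on irradiated feeders, which were reduced by settling before RNA was made, whereas the design text mentions LIF alone. Whether replicate arrays stand for separate cultures or clones is not stated, so the p-values measure a spread among arrays that may be technical only. Cells given DOX but lacking the transgene were not analysed here.

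Collagen chains are modified while they fold in the ER. Prolyl 4-hydroxylase is a tetramer of catalytic alpha subunits, encoded by P4ha1 or P4ha2, and beta subunits, encoded by P4hb, which is protein disulfide isomerase and also oxidises other secreted proteins. Its hydroxyproline stabilises the collagen triple helix, and the enzyme needs oxygen, 2-oxoglutarate, iron and ascorbate. The lysyl hydroxylases encoded by the Plod genes use the same cofactors to make hydroxylysine, the site of glycosylation and of crosslinks. ERO1A passes electrons from protein disulfide isomerase to oxygen, and the copper enzymes LOX and LOXL2 crosslink collagen outside the cell. P4ha1, P4ha2, Plod2, Ero1a, Lox and Loxl2 are known in other cells as targets of the hypoxia-inducible factor HIF-1.

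The values are log2 summaries made by the authors with RMA. Satb1 had log2 levels of 8.61, 8.79 and 8.68 on the +DOX arrays, against 4.95 and 5.34 on the no DOX arrays, and the groups did not overlap. This 11.7-fold difference did not pass limma over all genes (adjusted p = 0.229) and passed with limma's prior spread taken from genes with 5 distinct values, called the untied spread below (adjusted p = 0.00384). A gene that does not pass the fit over all genes is therefore not shown to be unchanged. The ES cell markers Pou5f1, Sox2 and Nanog had log2 levels between 9.75 and 9.96 on the +DOX arrays and between 9.79 and 9.97 on the no DOX arrays. Of 10 ES cell markers, means were lower in 6 and higher in 3 with DOX. In limma 0 of the markers passed and 1 had an unadjusted p under 0.05, against 309 of 19938 genes. That marker, Tdgf1, which encodes the Nodal co-receptor Cripto, was also the 1 with separated groups (10.0%, against 3.08% of all genes). Tdgf1 had log2 levels of 11.07, 11.09 and 11.01 on the +DOX arrays, against 11.23 and 11.29 on the no DOX arrays, a change of -0.21. The mean log2 level of 23 measured fibroblast markers was 4.96, 4.99 and 4.99 on the +DOX arrays and 4.95 and 4.96 on the no DOX arrays. With DOX, 14 of these markers had a higher and 7 a lower mean, 2 were constant, and none had groups that did not overlap. No marker is listed at 0, and the array files used here carry no detection call. Many values were exactly tied between arrays: 9.03% of genes had 5 distinct values and 15.1% had the same value throughout.

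Of the 8 genes, P4ha1, Ero1a, Plod2 and Lox lay lower on every +DOX array than on both no DOX arrays. The other 4, namely P4ha2, P4hb, Plod1 and Plod3, had overlapping groups. In all genes, 3.08% had groups that did not overlap in the lower direction and 1.65% in the higher direction, against 4 and 0 of the 8. The 15.1% of genes with the same value throughout cannot separate, so ties lower these shares. P4ha1, Ero1a and Plod2 had 5 distinct values, so the shares of all genes, here and beside the lists, are not a like benchmark for such genes. The median log2 change of the 8 genes, +DOX minus no DOX, was -0.11, and that of all genes was 0. In limma, fitted over all genes with Benjamini-Hochberg adjustment, 0 of the 8 passed an adjusted p of 0.05. Over all genes, 0.00502% passed as lower and 0.01% as higher. At an unadjusted p under 0.05 there were 3 of the 8, P4ha1, Ero1a and Lox, beside 213 lower and 96 higher among all genes. With the untied spread, 0 of the 8 passed, against 0 lower and 1 higher among all genes. The same 3 again had an unadjusted p under 0.05, and the number over all genes was not counted for that fit. With the mean of the fibroblast markers as a covariate, the log2 change was -0.54 for P4ha1, -0.33 for Ero1a and -0.19 for Lox. In RNA of mixed cells, fewer cells of a type and less RNA per cell cannot be told apart.

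**Figure D1:**
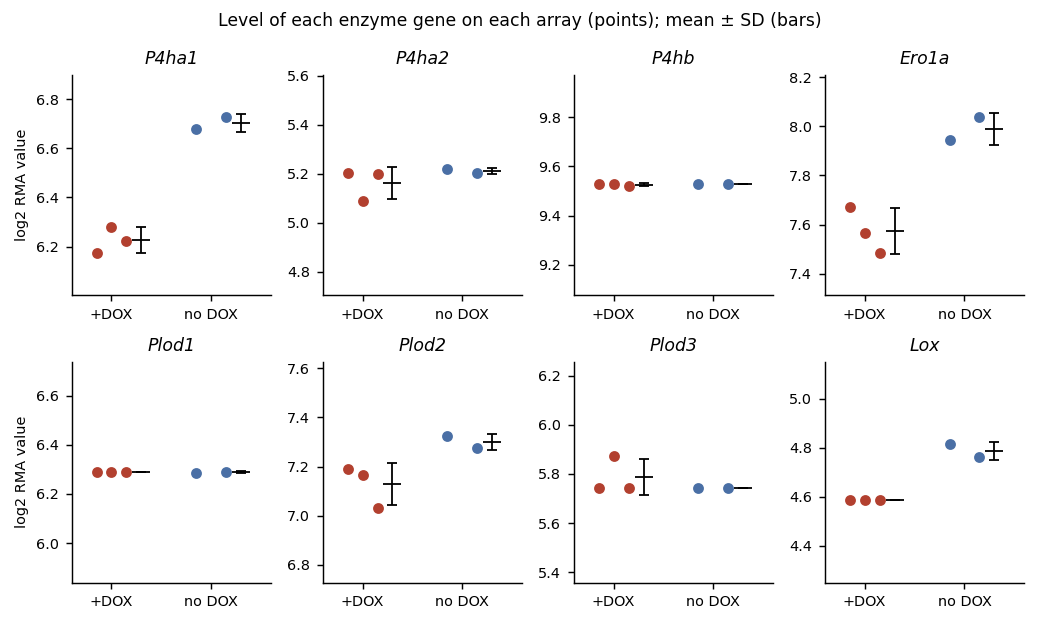
Log2 RMA value of each gene on the 3 +DOX arrays (red points) and the 2 no DOX arrays (blue points), with the mean and SD of each group as bars. Each panel spans the same height on the log2 scale. In P4ha1, Ero1a, Plod2 and Lox all red points lie below both blue points.

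P4ha1, the catalytic alpha subunit gene of the main prolyl 4-hydroxylase form in most cells, had the largest difference. Its log2 level was 6.17, 6.28 and 6.22 on the +DOX arrays, against 6.68 and 6.73 on the no DOX arrays. The groups were separated by 0.40, more than the range within the +DOX group, which was 0.11. Its mean was 6.23 ± 0.05 (SD, n = 3) with DOX and 6.70 ± 0.04 (SD, n = 2) without, a log2 change of -0.48 with a standard error of 0.04, or 1.39-fold lower. With the untied spread the standard error was larger, 0.06, and the 95% interval ran from -0.63 to -0.32. P4ha1 did not pass over all genes (adjusted p = 0.649, limma), although only 11 of 19938 genes, itself included, had a change as low.

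P4ha2 encodes the alternative alpha subunit. Its log2 level was 5.20, 5.09 and 5.20 on the +DOX arrays, against 5.22 and 5.20 on the no DOX arrays. Array 2 of the +DOX group stood below the other 4 arrays, which lay within 0.02 of each other. The log2 change was -0.05 with a standard error of 0.05 (adjusted p = 0.77, limma). With the untied spread the standard error was 0.065 and the interval was -0.21 to 0.11. Without +DOX array 2 the log2 change was -0.01, and with the mean of the fibroblast markers as a covariate it was -0.0026.

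P4hb, the beta subunit and disulfide isomerase gene, had the same log2 level of 9.53 on 4 arrays and 9.52 on +DOX array 3. The log2 change was -0.0034, and with quantile normalization applied again it was 0.012, so its sign was not fixed. The interval with the untied spread was -0.14 to 0.13, so a change of the size seen in P4ha1 lay outside it. The standard error of the fit over all genes, 0.0045, rests on tied values and understates the error.

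Taking the difference of a pair of genes on the same array gives the shift of the catalytic subunit relative to its partners. P4hb was nearly constant, so its pair with P4ha1 largely restates the change of P4ha1 alone, -0.48. The log2 difference P4ha1 minus P4hb was -3.36, -3.25 and -3.30 on the +DOX arrays, against -2.85 and -2.80 on the no DOX arrays. All +DOX arrays lay below both no DOX arrays, with a mean shift of -0.47. The same difference for P4ha1 minus P4ha2 was 0.97, 1.19 and 1.03 on the +DOX arrays, against 1.46 and 1.53 on the no DOX arrays. Only the shift between groups can be read, -0.43 here, since probe sets of different genes have no common scale. In all, 6 such pairs were tested with exact two-sided permutation tests over the 10 splits of 5 arrays, which cannot give a p under 0.1. The pairs of P4ha1 both had p = 0.1 (exact permutation test, adjusted p = 0.12 over the 6 pairs). The groups of P4ha1 were already separated, so these tests are no further evidence.

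Ero1a, the gene of the ER oxidase that reoxidises protein disulfide isomerase, had the next largest difference. Its log2 level was 7.67, 7.57 and 7.49 on the +DOX arrays, against 7.94 and 8.04 on the no DOX arrays. The groups were apart by 0.27, more than the range within either group. The mean was 7.57 ± 0.09 (SD, n = 3) with DOX and 7.99 ± 0.07 (SD, n = 2) without, a log2 change of -0.42 with a standard error of 0.07, or 1.33-fold lower. It did not pass over all genes (adjusted p = 0.77, limma). With the untied spread the standard error was 0.08 and the interval was -0.61 to -0.22. Changes as low as that of Ero1a were found in 26 of 19938 genes.

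Its paralog Ero1b, the ER oxidase best known from the pancreas, had a log2 level of 4.52, 4.41 and 4.41 on the +DOX arrays and 4.41 on both no DOX arrays. Within arrays the log2 difference Ero1a minus Ero1b was 3.15, 3.15 and 3.07 with DOX, against 3.53 and 3.62 without, a shift of -0.45. Against P4hb, the substrate partner of the oxidase, the shift of Ero1a was -0.41. The groups did not overlap in either pair (p = 0.1 for both, exact permutation test, adjusted p = 0.12). Ero1b and P4hb varied little, so both shifts largely restate the change of Ero1a alone, -0.42, and are no further evidence.

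The promoters of the prolyl 4-hydroxylase and oxidase genes are shown because P4ha1 and Ero1a had the largest differences and P4ha2 and P4hb, the genes of the alternative alpha and of the shared beta subunit, had overlapping groups. The sequences are from RefSeq on build GRCm38.p6, run from 250 bases before to 50 bases after the annotated start in the direction of the gene, and are given 5′ to 3′. Capitals mark the core of the HIF binding site, searched as ACGTG and GCGTG on both strands, so that CACGT and CACGC are matches on the opposite strand. P4ha1 lies at chr10:59323046-59323345 (+), Ero1a at chr14:45318523-45318822 (-), P4ha2 at chr11:54100674-54100973 (+) and P4hb at chr11:120573204-120573503 (-).
P4ha1: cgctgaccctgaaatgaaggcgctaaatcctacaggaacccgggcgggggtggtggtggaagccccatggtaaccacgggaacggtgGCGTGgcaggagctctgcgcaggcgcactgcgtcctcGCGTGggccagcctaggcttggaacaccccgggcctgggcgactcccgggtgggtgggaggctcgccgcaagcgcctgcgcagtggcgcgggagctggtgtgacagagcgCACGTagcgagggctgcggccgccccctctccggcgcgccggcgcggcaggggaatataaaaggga
Ero1a: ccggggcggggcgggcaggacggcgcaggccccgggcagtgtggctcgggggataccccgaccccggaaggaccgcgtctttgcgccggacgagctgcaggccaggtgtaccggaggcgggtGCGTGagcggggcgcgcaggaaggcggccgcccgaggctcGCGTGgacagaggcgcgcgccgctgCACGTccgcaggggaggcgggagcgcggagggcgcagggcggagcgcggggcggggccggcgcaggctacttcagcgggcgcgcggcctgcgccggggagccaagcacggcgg
P4ha2: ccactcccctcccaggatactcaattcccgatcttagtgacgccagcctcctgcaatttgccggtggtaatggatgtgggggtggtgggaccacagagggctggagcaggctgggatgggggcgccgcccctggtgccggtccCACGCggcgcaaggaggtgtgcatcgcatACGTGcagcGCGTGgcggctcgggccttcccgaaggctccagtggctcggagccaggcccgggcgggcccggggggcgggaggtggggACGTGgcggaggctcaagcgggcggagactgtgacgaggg
P4hb: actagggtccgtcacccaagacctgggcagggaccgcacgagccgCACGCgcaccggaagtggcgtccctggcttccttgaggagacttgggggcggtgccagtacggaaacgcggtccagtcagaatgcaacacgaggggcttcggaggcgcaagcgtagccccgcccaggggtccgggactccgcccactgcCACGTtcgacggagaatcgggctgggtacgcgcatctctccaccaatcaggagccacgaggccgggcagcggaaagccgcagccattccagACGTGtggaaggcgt

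P4ha1 and Ero1a each held 1 ACGTG and 2 GCGTG, P4ha2 held 2 and 2, and P4hb held 2 and 1. Plod1 held 0 ACGTG and 2 GCGTG and Plod3 held 1 and 3, and no matches overlapped in any of the 6 promoters. At least 1 of the motifs was thus found in 6 of 6, with ACGTG in 5. Among 32851 promoters of the same length, 43.8% held at least 1 of them, 19.6% held ACGTG and 32.4% held GCGTG. Matches were found in genes with and without separated groups, and a match is a run of letters, not a measured binding site. The AT content was 29.7% in P4ha1, 19.7% in Ero1a, 29.7% in P4ha2, 33.0% in P4hb, 35.7% in Plod1 and 46.7% in Plod3, against a median of 47.3% over all promoters. All 6 lay below that median, and the shares of promoters with a motif were not matched for AT content. Plod2, Lox and Loxl2 were not used in the motif search.

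**Figure D2:**
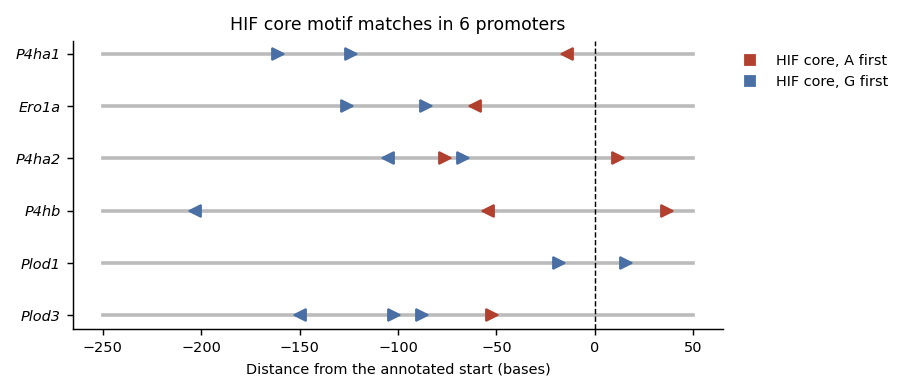
Positions of the HIF core motif in 6 promoters, in bases from the annotated start (dashed line), with A-first matches in red and G-first matches in blue. Triangles point right for the strand of the gene and left for the opposite strand. All 6 promoters hold at least 1 match.

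Plod2 encodes the lysyl hydroxylase of collagen telopeptides, the ends of the chain where crosslinks form. Its log2 level was 7.19, 7.17 and 7.03 on the +DOX arrays, against 7.32 and 7.28 on the no DOX arrays. The groups were separated by 0.09, less than the 0.16 between the highest and the lowest +DOX array, and array 3 was the lowest. The log2 change was -0.17 with a standard error of 0.06, or 1.13-fold lower (adjusted p = 0.77, limma). With the untied spread the standard error of Plod2 was 0.07 and its interval, -0.35 to 0.0083, includes 0. With the mean level of the fibroblast markers as a covariate the log2 change was -0.11, over 1.5 times smaller.

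Plod1, a lysyl hydroxylase gene that acts on the helical part of collagen, had a log2 level of 6.29 on all +DOX arrays, against 6.28 and 6.29 on the no DOX arrays. Its log2 change was 0.0032, and the interval with the untied spread was -0.13 to 0.14. Plod3, whose product also glycosylates hydroxylysine, had log2 levels of 5.74, 5.87 and 5.74 on the +DOX arrays and 5.74 on both no DOX arrays. The single higher array, +DOX array 2, made up its log2 change of 0.04, which was 0.0013 without that array. The interval for Plod3 was -0.12 to 0.21.

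The shift of Plod2 against its paralogs within arrays was -0.17 relative to Plod1 and -0.22 relative to Plod3. In the first pair the log2 difference was 0.90, 0.87 and 0.74 on the +DOX arrays, against 1.04 and 0.99 on the no DOX arrays. Both pairs had groups that did not overlap, with p = 0.1 for Plod1 and p = 0.2 for Plod3 (exact permutation test, adjusted p = 0.12 and 0.2). Plod1 was nearly constant, so the first shift largely restates the change of Plod2 alone and is no further evidence.

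Lox, the lysyl oxidase gene, had the same log2 level of 4.59 on all 3 +DOX arrays, against 4.81 and 4.76 on the no DOX arrays. The groups were apart by 0.17, while the +DOX arrays had no spread at all because of the tie. The mean was 4.59 with DOX and 4.79 ± 0.04 (SD, n = 2) without, a log2 change of -0.20, or 1.15-fold lower. With the untied spread its standard error was 0.06 and its interval was -0.34 to -0.06. Lox did not pass over all genes (adjusted p = 0.697, limma). Without no DOX array 1 or 2 it passed (adjusted p = 0.000199 and 0.00017, limma), in fits where the tied +DOX arrays alone set its spread and that called 1980 and 1979 genes. Lox was the only 1 of the 8 genes below the median level of all genes, 5.06.

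**Figure D3:**
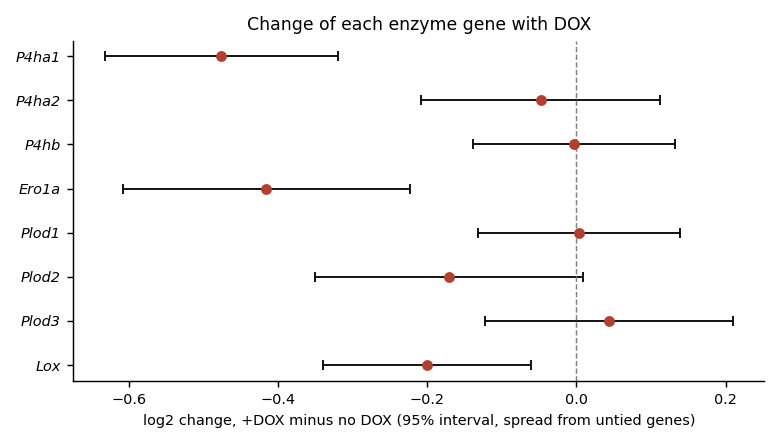
Log2 change of each gene, +DOX minus no DOX (points), with the 95% interval from the untied spread (bars) and 0 as a dashed line. The intervals of P4ha1, Ero1a and Lox lie below 0, and that of Plod2 ends at 0.0083. The intervals are not adjusted for the number of genes tested, and none of these genes passed after adjustment in that fit.

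The genes differed in which array was extreme. Among the +DOX arrays P4ha1 was lowest on array 1 and highest on array 2, while Ero1a and Plod2 were both highest on array 1 and lowest on array 3. After each gene was centred on its own mean over 5 arrays, the root mean square difference between the profiles of P4ha1 and Ero1a was 0.09 on the log2 scale. That between Plod2 and Lox was 0.06 and that between P4ha1 and P4hb was 0.23. P4hb and Plod1, nearly constant, were the closest pair at 0.0054.

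By the same measure over 5 arrays, the genes outside this group most like P4ha1 were Ddit4, an inhibitor of mTORC1 signalling, at 0.06, and Scd2, a stearoyl-CoA desaturase gene, at 0.07. Prelid2, Nsun6 and Scd1 followed at 0.08 each. Most like Ero1a was Slc16a3, the lactate exporter gene MCT4, at 0.02. Slc16a3 had log2 levels of 8.16, 8.08 and 7.98 on the +DOX arrays, against 8.48 and 8.56 on the no DOX arrays, an order of arrays identical to that of Ero1a. Egln1, the main HIF prolyl hydroxylase gene, Enox1, Rcor2 and Stmn2 came next, between 0.05 and 0.07. These genes were picked for likeness, so their separation between groups is no further evidence.

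Other lists of the collagen and disulfide machinery had medians at or near 0, with single genes on both sides. Of 14 measured genes for other steps of collagen modification, such as the prolyl 3-hydroxylase gene P3h1, the chaperone gene Serpinh1 and the cyclophilin gene Ppib, 0 passed in limma in either direction and 0 had an unadjusted p under 0.05. The means of 6 were lower and of 5 higher, none had separated groups, and the median log2 change was 0. The largest value was that of P4ha3, the third alpha subunit gene, at 0.13 with a standard error of 0.10. Its log2 level was 4.33 on +DOX array 2 and 4.09 on the other +DOX arrays and on no DOX array 1, so the groups overlapped. Serpinh1 differed by 0.02 and Ppib by 0.02.

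Among 27 other oxidative folding genes, 0 passed in limma and 0 had an unadjusted p under 0.05. Means were lower in 11 and higher in 13, and none had separated groups. Their median log2 change was 0, with a range from -0.16 to 0.12. The disulfide isomerase genes Pdia3, Pdia4 and Pdia6 had log2 changes of 0.02, 0 and -0.05. The highest value was that of Vkorc1l1, a vitamin K epoxide reductase gene, at 0.12 with a standard error of 0.09. Erp44, whose product retains ERO1A in the early secretory pathway, had the lowest value at -0.16 with a standard error of 0.10. Its log2 levels were 7.13, 7.04 and 7.13 on the +DOX arrays, against 7.40 and 7.13 on the no DOX arrays, so that no DOX array 1 alone stood apart.

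Crosslinking and procollagen processing genes gave a similar result. Of 14 measured, 0 passed in limma and 1 had an unadjusted p under 0.05, against 309 of 19938 genes. Means of the 14 were lower in 5 and higher in 6, with a median log2 change of 0. Loxl1, Loxl3 and Loxl4, the paralogs of Lox and Loxl2, had log2 changes of 0.08, -0.03 and 0. Pcolce2, a gene for an enhancer of procollagen C-proteinase, was the 1 gene with separated groups (7.14%, against 3.08% of all genes). Its log2 level was 5.96 on all +DOX arrays, against 6.05 and 6.10 on the no DOX arrays, a change of -0.11 (adjusted p = 0.77, limma). Pcolce, its paralog, had -0.16 with a standard error of 0.09 and overlapping groups, a value near that of Plod2.

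The substrates themselves, 17 collagen chain genes, had 2 lower and 11 higher means, with a median log2 change of 0.02 and a range from -0.02 to 0.10. None had separated groups, 0 passed in limma and 0 had an unadjusted p under 0.05. Col1a1, Col1a2, Col3a1, Col6a1 and Col6a2 are also among the fibroblast markers, so these lists are not independent. Col4a1 and Col4a2, the basement membrane chains that early embryonic cells make, differed by 0.0037 and 0.02. Leaving out no DOX array 2 or +DOX array 3 brought the median of the collagen chains to 0.0037 or 0.

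**Figure D4:**
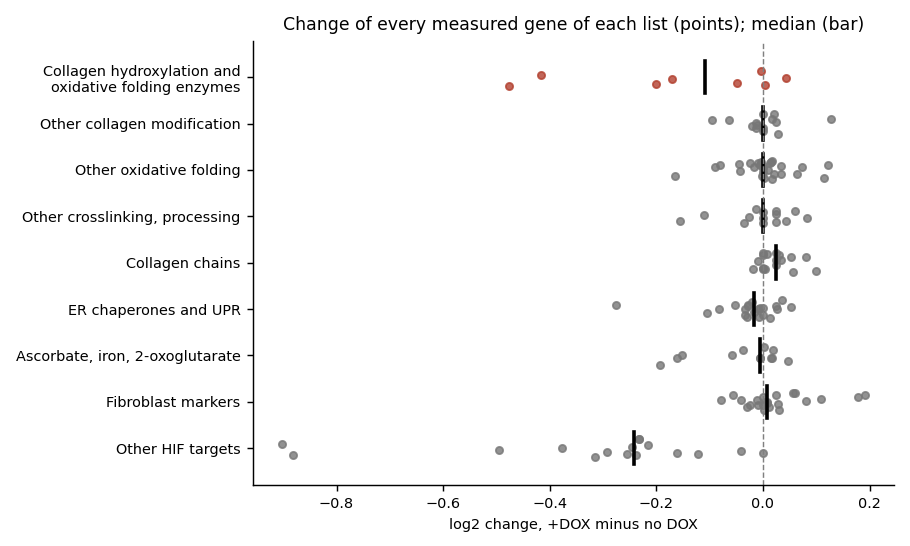
Log2 change, +DOX minus no DOX, of every measured gene of each list (points) with the list median (bar) and 0 as a dashed line. The 8 enzyme genes are in red, and some lists share genes. Medians of the collagen, folding and fibroblast lists lie between -0.02 and 0.02, that of the 8 enzymes at -0.11 and that of other HIF targets at -0.24.

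Other HIF targets had lower means with DOX in 15 of 16 measured genes. Groups were separated in the lower direction in 12 (75.0%, against 3.08% of all genes), and the median log2 change was -0.24. In limma 0 of the 16 passed and 12 had an unadjusted p under 0.05, against 309 of 19938 genes. This list was drawn up with that pattern known, so it lends no independent support. Egln3, an oxygen-sensing prolyl hydroxylase gene, had 6.17, 5.80 and 6.01 on the +DOX arrays, against 6.92 and 6.87 on the no DOX arrays. Its log2 change was -0.90, the lowest of all genes, and that of the mitophagy receptor gene Bnip3 was -0.88. Ddit4, Ndrg1 and Aldoa had -0.50, -0.38 and -0.22.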

How the data were processed

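The deposited table held log2 values for 35557 probe sets on 5 arrays, which the authors made with RMA, a method that corrects background, normalizes arrays to each other and summarises probe sets, per the submitters' processing notes. The version is not given in the sources used here, and the scale was read from the values, 0.79 to 13.13. The array annotation gave 21789 probe sets a single symbol and 1621 several, and 12147 are unnamed here. Normalization of this kind hides a shift shared by all transcripts. The brightest probe set on average stood for each of 19938 genes, with no filter on low values.

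Groups came from the sample titles. Genes were tested with limma 3.58.1 in R 4.3.3 (lmFit, eBayes) adjusted by Benjamini-Hochberg across the 19938 genes, and 0.05 was the threshold. Pairs used exact permutation tests in scipy 1.17.1. The fit was also run on simulated data with and without ties, but the outcome is not reported here and lends these results no support. The members and lists were chosen with earlier results of these data known. Named genes were the 8 measured members, Satb1, Egln3, Bnip3, Ndrg1, Ddit4, Aldoa, up to 3 genes per list with separated groups by size, and the 5 genes most like P4ha1 and Ero1a. Other list genes were named after their values were seen. Alternatives were the mean of probe sets, genes above the median level, centred arrays, repeated quantile normalization and eBayes with trend and robust. Further ones were the untied spread, only genes untied within both groups, the title number as a block and the fibroblast mean as a covariate. A threshold of 0.01 was used too, and each array was left out in turn. The number of arrays limits the precision.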

Additional observations from a re-analysis of the deposited data

How the results depend on the processing

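The log2 changes of P4ha1, Ero1a, Plod2, P4ha2 and Lox kept a negative sign in every alternative that tested them, from -0.54 to -0.45 for P4ha1, -0.46 to -0.33 for Ero1a, -0.20 to -0.11 for Plod2 and -0.23 to -0.17 for Lox. With both no DOX arrays kept, the adjusted p of P4ha1 ran from 0.157 to 1 and that of Ero1a from 0.387 to 1 (limma). Both low ends came from testing only genes untied within both groups. P4hb turned to 0.012 with quantile normalization applied again, and Plod3 to -0.0031 with the fibroblast mean as a covariate. For the 8 genes the median was -0.11, and for the 7 above the median level it was -0.048. It was -0.29 for the 4 genes untied within both groups and -0.054 with the fibroblast covariate. When each array was omitted in turn it ran from -0.134 to -0.0935. Fewer genes explain -0.048 and -0.29 by construction, and the cause of -0.054 was not tested. Of the 8 genes, 4 to 5 had separated lower groups with single arrays left out. The share over all genes was not counted for those subsets, and fewer arrays separate more easily. Separated lower groups were found in 3 of the 7 genes above the median level, and in 5 with centred arrays or repeated quantile normalization. The share over all genes was not counted in these settings either. Centring or normalizing again can part values that were tied between arrays, so 5 is not a stronger result than 4. Separated groups could not be counted with a covariate or block. Called members ran from 0 to 1 in each direction with single arrays left out, Lox lower without either no DOX array and Plod1 higher, at 0.0064, without no DOX array 2.

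Over all genes, against 2 higher and 1 lower, no gene passed with centred arrays, repeated quantile normalization, the block, the fibroblast covariate or a restriction to genes over the median level (0 and 0 in each). The threshold of 0.01 left 0 higher, and the untied spread gave 1 higher and 0 lower. Testing only the genes untied within both groups gave 1 higher. Omitting an array, the counts ran from 0 to 1051 higher and 0 to 1097 lower. A lone no DOX array leaves the spread to the +DOX arrays alone, where values can be tied. The cause of these differences in counts was not tested. Same-numbered arrays were not shown to be paired: their deviations correlated at -0.0063 and 0.0063, and the replicate block gave a median of -0.09 for the 8 genes with 0 called. The within-array shifts of the 6 pairs kept their sign in every alternative. With 5 arrays and no detection call, small changes of dim genes such as Lox are the least certain.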

Other observations

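ER stress genes and genes of cofactor supply bear on where and how these enzymes work. Of 21 ER chaperone and unfolded protein response genes, means were lower in 14 and higher in 5 with DOX, and 1 had separated groups (4.76%, against 3.08% of all genes). None passed in limma (0, with 0 at an unadjusted p under 0.05), and the median log2 change was -0.02. Hspa5, the gene of the main ER chaperone BiP, had log2 levels of 9.94, 9.92 and 9.83 on the +DOX arrays, against 9.94 and 9.91 on the no DOX arrays, and the groups overlapped. The stress factor genes Ddit3 and Atf4 were constant across arrays, at 5.07 and 7.63. The lowest value was that of Dnajb9, an ER co-chaperone gene, at -0.28 with a standard error of 0.16. Dnajb9 had log2 levels of 5.82, 5.55 and 5.78 on the +DOX arrays, against 5.82 and 6.17 on the no DOX arrays, with no DOX array 2 the highest, +DOX array 2 the lowest and no DOX array 1 equal to +DOX array 1. Canx, the calnexin gene, was the 1 with separated groups, at a change of -0.02.

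Among 12 genes that supply ascorbate, iron or 2-oxoglutarate, means were lower in 7 and higher in 5 and 2 had separated groups in the lower direction (16.7%, against 3.08% of all genes). In limma 0 of the 12 passed and 2 had an unadjusted p under 0.05, against 309 of 19938 genes. The median log2 change of the 12 was -0.0053. The separated genes were Slc2a3 and Slc2a1, glucose transporters that also carry oxidised ascorbate and are HIF targets in other cells. Slc2a3 had 10.83, 10.70 and 10.76 on the +DOX arrays, against 10.98 and 10.93 on the no DOX arrays, a change of -0.19, and Slc2a1 had -0.16. Slc2a1 was also counted in the list of other HIF targets. The ascorbate transporter gene Slc23a2 differed by 0.02 and the iron uptake gene Tfrc by -0.15, with overlapping groups.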
